A study of Mus musculus with 8 samples.

Results

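The genes described here build the contractile machinery of skeletal muscle and handle its calcium, from embryonic to adult isoforms. They are a list of 49 gene symbols, of which 45 had values, in 105 of the 36743 rows and among the 16573 genes of the authors' deposited table. Myl2, Myl3, Myot and Pvalb were not analysed here. Poly(A) RNA was sequenced from mice of the group Psat1iKO (n = 4 libraries) and of the group Ctrl (n = 4 libraries). Both groups were taken 3 days after injury of the tibialis anterior and extensor digitorum longus with notexin at 2 mg/mL, a snake venom toxin that destroys fibres. The labels name muscle stem cells obtained by flow cytometry as the cell type, and the design text names Trizol extraction from the muscles. The sources used here do not say which exons are deleted, which Cre is used, how old the mice were or whether each library is a separate mouse, so a p-value here reflects how these libraries varied, which can be technical variation. Psat1, the serine synthesis gene named in the genotype, was lower in Psat1iKO: the authors' deposited table gives its leading row a log2 change of -0.49 ± 0.0675 (SE, as everywhere below; DESeq2 adjusted p = 1.22e-09).

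A muscle fibre shortens when myosin thick filaments pull on actin thin filaments, and troponin with tropomyosin opens the thin filament when calcium leaves the sarcoplasmic reticulum. Regenerating muscle builds its first sarcomeres from embryonic and neonatal isoforms such as Myh3, Myh8, Myl4, Tnnt2 and Actc1, and later replaces them by adult slow or fast forms. Myoblasts hold desmin and cytoskeletal tropomyosins before any sarcomere is made.

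The myosin heavy chain genes Myh3, Myh2, Myh1, Myh4 and Myh8 lie near each other on chromosome 11 of GRCm38, with Myh3 at one end (67078300 to 67102291) and Myh8 at the other (67277124 to 67308634). The RefSeq promoters of Myh3, the heavy chain of highest count in these libraries, and of the adult fast genes Myh1 and Myh4, which were lower, are shown over 250 bases before the start on the plus strand of GRCm38.p6. They lie at chr11:67078050-67078299 for Myh3, chr11:67199852-67200101 for Myh1 and chr11:67237562-67237811 for Myh4. Capitals mark matches to the E-box CANNTG, which myogenic bHLH factors bind, to the MEF2 motif and to the CArG box of serum response factor.
Myh3: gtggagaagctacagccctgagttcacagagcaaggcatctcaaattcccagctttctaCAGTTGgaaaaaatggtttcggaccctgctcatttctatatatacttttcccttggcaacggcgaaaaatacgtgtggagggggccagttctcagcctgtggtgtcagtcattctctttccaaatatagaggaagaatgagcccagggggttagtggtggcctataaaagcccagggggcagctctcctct
Myh1: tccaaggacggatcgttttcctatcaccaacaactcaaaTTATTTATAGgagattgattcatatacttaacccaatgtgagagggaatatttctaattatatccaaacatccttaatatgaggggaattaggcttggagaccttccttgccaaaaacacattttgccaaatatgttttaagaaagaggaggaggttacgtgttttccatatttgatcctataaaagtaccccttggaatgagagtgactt
Myh4: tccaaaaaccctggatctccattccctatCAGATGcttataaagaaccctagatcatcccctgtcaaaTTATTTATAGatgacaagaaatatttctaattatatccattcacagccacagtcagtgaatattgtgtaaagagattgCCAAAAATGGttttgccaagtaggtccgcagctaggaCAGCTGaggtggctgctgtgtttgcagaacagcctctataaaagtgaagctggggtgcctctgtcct

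Myh3 held 1 E-box in this window, 191 bases before the start, and no MEF2 or CArG match. The MEF2 match TTATTTATAG stood 211 bases before the start of Myh1 and, in the same letters, 182 bases before that of Myh4. Myh4 also held E-boxes 221 and 67 bases before its start and the CArG match CCAAAAATGG at 104, and none of these matches overlapped. RefSeq promoters were at hand for 40 of the 49 listed genes, in 49 windows. An E-box was found in 83.7% of these windows and in 66.2% of all 32851 promoter windows of this length, with both strands searched. The MEF2 motif was found in 16.3% of the members' windows and in 2.92% of all windows. The CArG box was found in 12.2% of the members' windows and in 1.47% of all windows. A match describes letters only, and binding was not measured here.

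Muscle stem cell and myoblast markers were high in these libraries. All 8 listed markers were measured, with mean normalized counts between 1923 (Pax7) and 49350 (Itga7), and their fitted group means (the level in each group that the mean of all libraries and the log2 change imply) summed to 140707 in Psat1iKO and 139889 in Ctrl. The committed myocyte genes Myog, Mymk, Mymx and Cdkn1c had means between 797 and 14298 and summed to 26452 in Psat1iKO and 28233 in Ctrl. Of other cell types, 5 of 6 macrophage markers were measured (C1qa was not analysed here), all 5 with leading rows below 0 and 0 called, and summed to 501 in Psat1iKO and 2479 in Ctrl. The 8 pericyte and smooth muscle markers summed to 12694 in Psat1iKO and 10344 in Ctrl, the 4 fibro-adipogenic markers to 1302 in Psat1iKO and 1101 in Ctrl, and the 4 endothelial markers to 108 in Psat1iKO and 135 in Ctrl. The marker sums are led by a few abundant genes and have no test. Of the macrophage markers, Lyz2 alone had 299 in Psat1iKO and 1849 in Ctrl (log2 change -2.63 ± 1.14). The part of these other cells in the results below was not tested.

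No gene of the contractile and calcium handling list was called on its leading row, its row of highest mean count. By the authors' DESeq2 adjusted p under 0.05, 0 of 45 leading rows were called, where 0.338% of all 16573 leading rows were. At an unadjusted p under 0.05, 1 was higher (Myh7) where 1.86% of all leading rows were, and 0 were lower where 2.23% were. The median log2 change was -0.05 over the 45 genes and -0.01 over all leading rows. Of the 45, 25 lay below 0 (55.6%) and 20 above, where 51.9% of all leading rows lay below 0. Among members that average 100 counts or more, 21 of 33 lay below 0 (63.6%), where 55.3% of all leading rows of that size did. The 95% interval of 31 genes stayed inside a 2-fold change. These 31 are 93.9% of the 33 members that average 100 counts or more, against 92.6% for all leading rows of that size. The other 2 of those 33 are Acta1 and Casq1, whose intervals reach just past a 2-fold decrease. In bulk RNA, fewer cells of a type and less RNA per cell cannot be told apart.

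**Figure D1:**
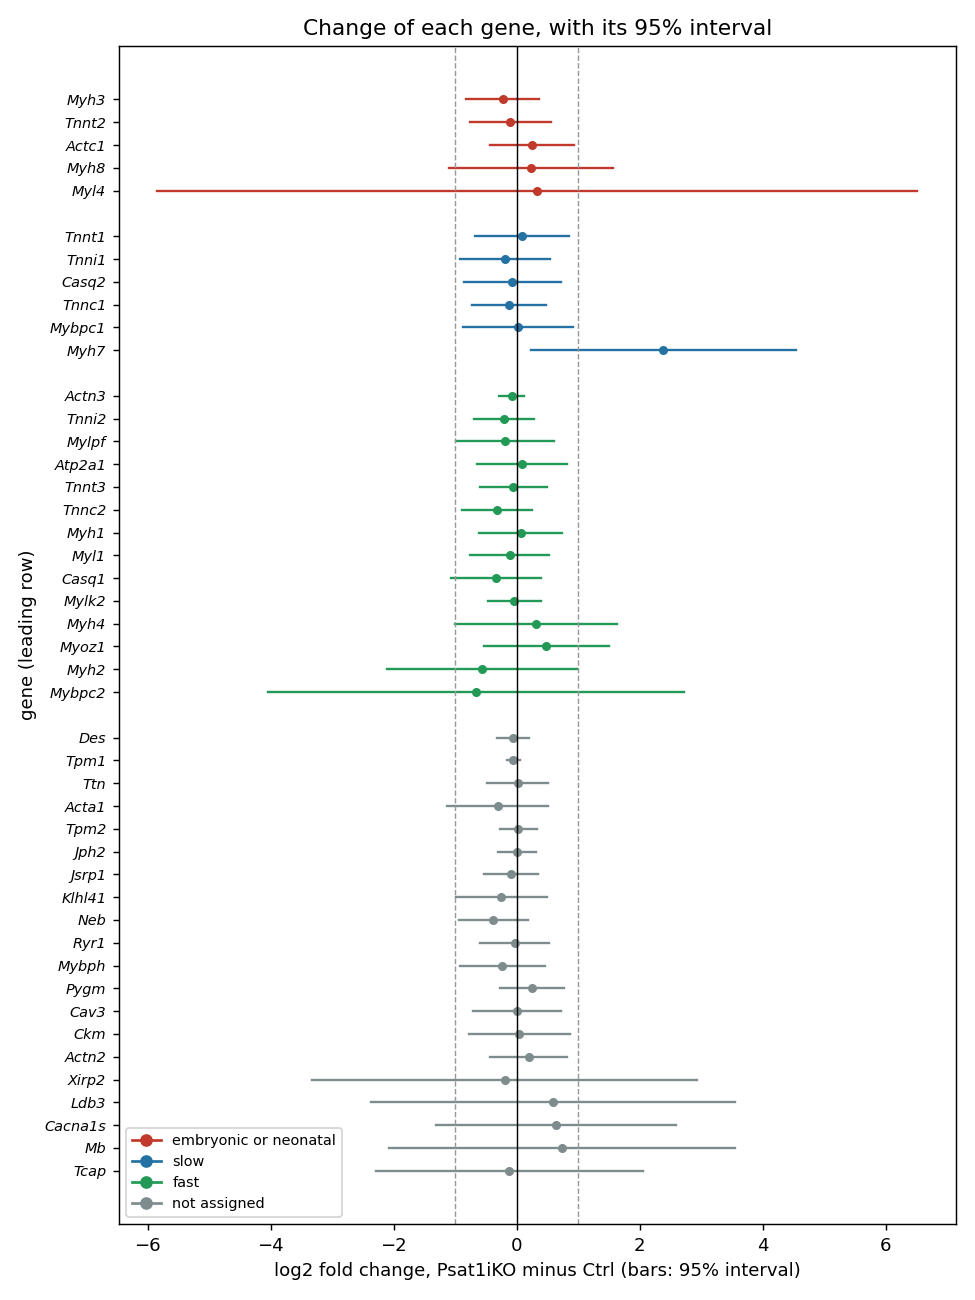
Log2 fold change (Psat1iKO minus Ctrl) of the leading row of each of the 45 genes on the horizontal axis, with genes grouped as embryonic or neonatal, slow, fast and not assigned. Points are the authors' estimates (4 libraries a group), bars are 95% intervals and dashed lines mark a 2-fold change; the interval of Myh7 alone leaves out 0, on a mean count of 3.34.

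Of the leading rows, 2 of 5 lay below 0 for embryonic or neonatal genes, 3 of 6 for slow genes and 10 of 14 for fast genes (71.4%), where 51.9% of all leading rows did. The median log2 change of leading rows was 0.24 for the 5 embryonic or neonatal genes, -0.03 for 6 slow genes and -0.10 for 14 fast genes, beside median standard errors of 0.348, 0.395 and 0.358. The embryonic median rests on genes of low count: over the 3 that average 100 counts or more it was -0.10. Summed over all rows, embryonic genes had 9798 counts in Psat1iKO and 10953 in Ctrl, a log2 ratio of -0.16. Slow genes had 3397 in Psat1iKO and 3542 in Ctrl, a log2 ratio of -0.06. Fast genes had 23450 in Psat1iKO and 25782 in Ctrl, a log2 ratio of -0.14. These sums are led by a few abundant genes and have no test.

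Among thick filament genes, Myh3, the embryonic myosin heavy chain, had the highest count in both groups. Its fitted total was 6571 in Psat1iKO and 7847 in Ctrl. Per kb of transcript the light chain gene Mylpf stood above Myh3, at 2430 against 1090 in Psat1iKO and 2761 against 1301 in Ctrl. Of the heavy chains, Myh1, the fast IIx form, came next with 1042 in Psat1iKO and 1251 in Ctrl. Of the counts of 6 sarcomeric heavy chains, whose transcripts differ little in length, Myh3 made up 85.1% in Psat1iKO and 85.4% in Ctrl, and Myh1 13.5% in Psat1iKO and 13.6% in Ctrl. The neonatal Myh8 held 0.738% in Psat1iKO and 0.527% in Ctrl, and the fast IIb chain Myh4 0.587% in Psat1iKO and 0.398% in Ctrl. The fast IIa chain Myh2 and the slow chain Myh7 were near the low end of the table, with mean counts of 6.02 and 3.34 over all libraries.

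Both rows of Myh3 had nearly equal means, and both lay slightly below 0. The log2 change in the authors' deposited table was -0.23 ± 0.304 for Myh3.1 and -0.29 ± 0.464 for the other row. For leading rows the authors' deposited table lists log2 changes of 0.07 ± 0.346 for Myh1, 0.24 ± 0.677 for Myh8 and 0.31 ± 0.673 for Myh4, none of them called. Myh7 had fitted means of 5.61 in Psat1iKO and 1.07 in Ctrl. For it the authors' deposited table lists 2.39 ± 1.10 on the log2 scale and a DESeq2 adjusted p of 0.675. Heavy chains share sequence, so how the authors' counting divided their reads is uncertain. Of the 50-base words of the longest transcript, 4.81% occur in another gene for Myh3, 18.9% for Myh4, 21.4% for Myh8, 28.2% for Myh7, 28.9% for Myh2 and 32.1% for Myh1.

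The light chains of highest level were fast ones. Mylpf, the fast regulatory light chain, ranked 7 of 45 per kb of transcript and had a fitted mean of 1861 in Psat1iKO and 2115 in Ctrl. Myl1, the fast essential chain, ranked 17 and had a total of 682 in Psat1iKO and 733 in Ctrl. Myl4, the embryonic essential chain, ranked 35, below Myh3 at 14, and had 26.0 in Psat1iKO and 20.6 in Ctrl. Per kb, Myl4 was 4.19% of Myl4 and Myl1 together in Psat1iKO and 3.12% in Ctrl. Its log2 change of 0.34 ± 3.15 in the authors' deposited table leaves its direction unknown. Mylk2, the kinase of the regulatory light chain in skeletal muscle, had 345 in Psat1iKO and 353 in Ctrl.

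Of the myosin binding proteins, which stabilise the thick filament, Mybph had a total of 520 in Psat1iKO and 618 in Ctrl. The slow form Mybpc1 had 243 in Psat1iKO and 233 in Ctrl, and the fast form Mybpc2 had 3.39 in Psat1iKO and 5.37 in Ctrl. Per kb, the slow form ranked 32 and the fast form 43. A share of 45.0% of the 50-base words of Mybph also occurs in transcripts of the overlapping gene Adora1, and 23.4% of those of Myl1 in the pseudogene Mylf-ps, so their counts are uncertain.

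**Figure D2:**
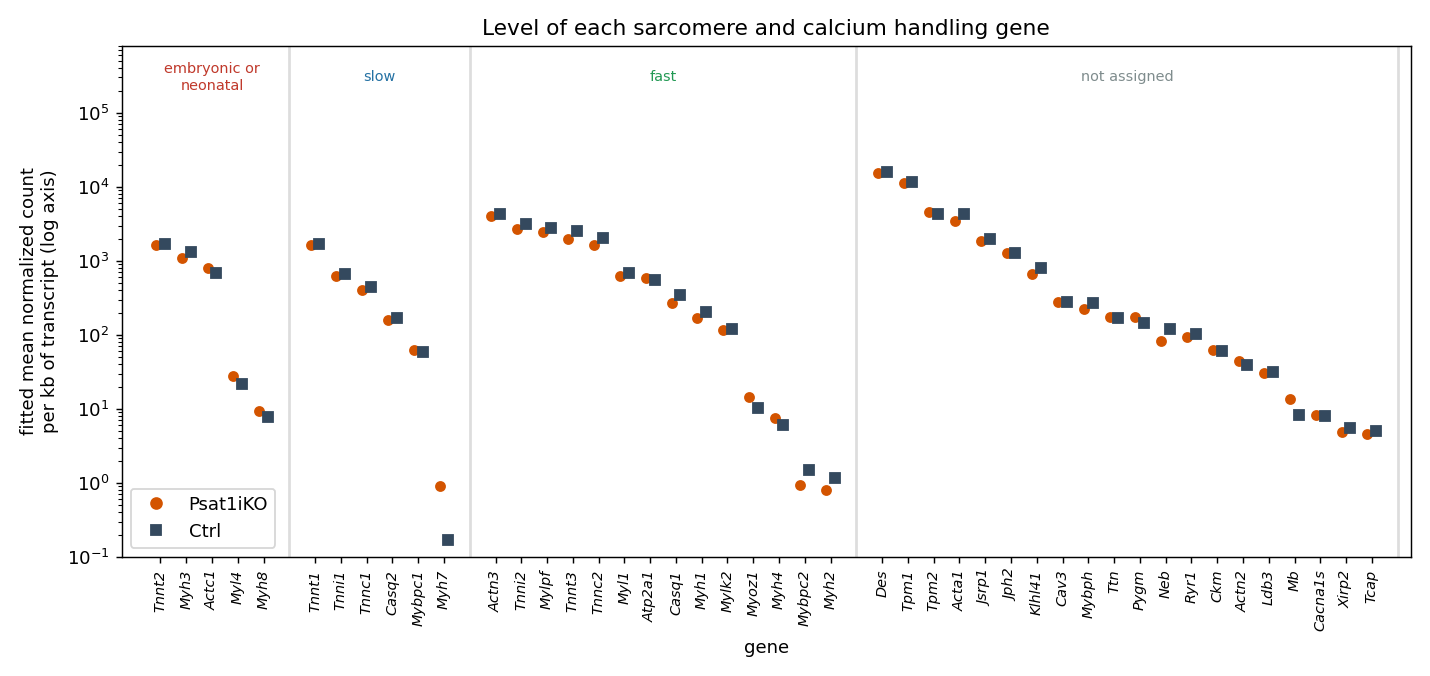
Fitted group mean of the summed rows of each of the 45 genes per kb of transcript (log axis), for Psat1iKO (circles) and Ctrl (squares), with genes ordered by level within the embryonic or neonatal, slow, fast and unassigned groups; no error bar is drawn because a total has no test. Circles and squares lie close together for most genes, Des and Tpm1 are highest, and Myh7 and Myh2 are lowest.

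Among thin filament genes, 9 of 12 leading rows lay below 0 (75%), with 0 called by DESeq2 and 0 at an unadjusted p under 0.05. All 12 average 100 counts or more, and 55.3% of all leading rows of that size lay below 0. Acta1, the adult skeletal actin, had a fitted total of 4926 in Psat1iKO and 6135 in Ctrl. Actc1, the cardiac actin of embryonic skeletal muscle, had 1197 in Psat1iKO and 1010 in Ctrl. Per kb, Actc1 made up 19.3% of the 2 actins in Psat1iKO and 13.9% in Ctrl. The log2 changes listed in the authors' deposited table are 0.24 ± 0.348 for Actc1 and -0.31 ± 0.418 for Acta1.1. On these leading rows their difference was 0.55 with a propagated standard error of 0.544 (taking the errors as independent), about as large as its error.

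Slow, fast and embryonic troponin genes were expressed side by side. Of troponin T, which ties the complex to tropomyosin, the embryonic and cardiac Tnnt2 had a fitted total of 1947 in Psat1iKO and 2027 in Ctrl. The slow Tnnt1 had 1739 in Psat1iKO and 1801 in Ctrl. The fast Tnnt3 had 2157 in Psat1iKO and 2707 in Ctrl. Per kb, Tnnt2 was 44.8% of Tnnt2 and Tnnt3 in Psat1iKO and 40.2% in Ctrl; Tnnt1 was 45.1% of Tnnt1 and Tnnt3 in Psat1iKO and 40.4% in Ctrl.

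For the other subunits the fast form was ahead per kb. Tnni2, the fast inhibitory subunit, had 2067 in Psat1iKO and 2386 in Ctrl, and Tnnc2, the fast calcium-binding subunit, had 1140 in Psat1iKO and 1420 in Ctrl. Tnni1, the slow inhibitory subunit, was 18.7% of Tnni1 and Tnni2 per kb in Psat1iKO and 17.6% in Ctrl. Tnnc1, the slow and cardiac calcium-binding subunit, was 19.9% of Tnnc1 and Tnnc2 in Psat1iKO and 17.9% in Ctrl. On leading rows, differences in log2 change within the troponin pairs ranged from -0.05 for Tnnt2 against Tnnt3 to 0.19 for Tnnc1 against Tnnc2, each smaller than its propagated standard error of 0.422 or more. On gene totals, which the shares above use and which have no test, they ranged from 0.11 for Tnni1 against Tnni2 to 0.28 for Tnnt1 against Tnnt3, and Tnnt2 against Tnnt3 stood at 0.27, the other sign than on leading rows. Tnnc2 overlaps Ube2c on the other strand, and 55.0% of its 50-base words occur in Ube2c transcripts, so its count is uncertain while the strand setting is unknown.

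Some minor rows of Tnnt3 and Tnnt2 had larger changes than the leading rows, and none was called. The minor rows of Tnnt1 lay between -0.15 and 0.26 on the log2 scale. Tnnt3.3 had fitted means of 301 in Psat1iKO and 555 in Ctrl, where the authors' deposited table lists -0.88 ± 0.374 on the log2 scale (DESeq2 adjusted p = 0.558). The leading row Tnnt3.2 stood at 1281 in Psat1iKO and 1326 in Ctrl. As fitted, Tnnt3.3 made up 14.0% of the gene in Psat1iKO and 20.5% in Ctrl. The minor row Tnnt2 had fitted means of 49.0 in Psat1iKO and 196 in Ctrl, where the authors' deposited table lists an adjusted p of 0.877 from DESeq2. Some other minor rows of this gene pointed the other way. Tnnt2.5 had fitted means of 45.8 in Psat1iKO and 4.40 in Ctrl (log2 change 3.38 ± 1.80). Tnnt2.1 had 117 in Psat1iKO and 16.3 in Ctrl (2.84 ± 1.90). The minor row of highest mean count, Tnnt2.2, stood at 0.06 ± 0.467. The leading row Tnnt2.8 had 1231 in Psat1iKO and 1319 in Ctrl.

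Neb, which encodes nebulin, a giant protein along the thin filament, had 1862 in Psat1iKO and 2700 in Ctrl as fitted totals. Its leading row Neb.4 had the lowest log2 change of the 33 leading rows that average 100 counts or more, listed as -0.38 ± 0.284 in the authors' deposited table with an unadjusted p of 0.185. The minor rows Neb.3 and Neb.2 stand at -0.67 ± 0.385 and -2.47 ± 1.83 in the authors' deposited table. The row Neb, with 8.45 counts, points the other way: the authors' deposited table lists 6.47 ± 3.18 (DESeq2 adjusted p = 0.776).

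Tropomyosin, which covers the myosin sites of actin, held the 1 called row of all 105, where 0.656% of the rows of the whole table were called, and 0.324% as lower in Psat1iKO. At an unadjusted p under 0.05 there were 8 of 105, where 6.04% of all rows passed. Tpm1.11, a minor row of Tpm1, fell to a fitted mean of 252 in Psat1iKO, against 466 in Ctrl. The authors' deposited table lists its log2 change as -0.88 ± 0.164 (DESeq2 adjusted p = 4.9e-05). This row held 0.765% of the Tpm1 total in Psat1iKO and 1.38% in Ctrl. The total itself was 32989 in Psat1iKO and 33800 in Ctrl. The leading row Tpm1.9, with 58.5% of the gene, had a log2 change of -0.05 ± 0.0546 in the authors' deposited table, the smallest error of all 45 leading rows.

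Other rows of Tpm1 at an unadjusted p under 0.05 pointed in either direction. Tpm1.12 had fitted means of 1191 in Psat1iKO and 918 in Ctrl, where the authors' deposited table lists 0.38 ± 0.121 on the log2 scale (DESeq2 adjusted p = 0.148). Tpm1.18 had 15.2 in Psat1iKO and 35.1 in Ctrl, where the authors' deposited table lists -1.21 ± 0.461 (DESeq2 adjusted p = 0.382). Tpm1 is transcribed from more than 1 promoter and spliced to muscle, smooth muscle and cytoskeletal forms, and the rows could not be matched to these forms here. Smooth muscle also makes Tpm1. All 8 pericyte and smooth muscle markers had leading rows above 0, with 0 called and a median log2 change of 0.99. Their 1 called row, Myh11.2, is a minor row with a mean count of 52.6 (DESeq2 adjusted p = 0.0466). The leading row Myh11.4 stood at 1.10 ± 0.692 on the log2 scale, and the row Myh11 at -1.55 ± 1.14. The part of these markers in the rows of Tpm1 was not tested. Tpm1 and Tpm2 had 0% of their 50-base words in another gene. Tpm2, which encodes beta-tropomyosin, had 9905 in Psat1iKO and 9411 in Ctrl, and its leading row stands at 0.03 ± 0.152 in the authors' deposited table.

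**Figure D3:**
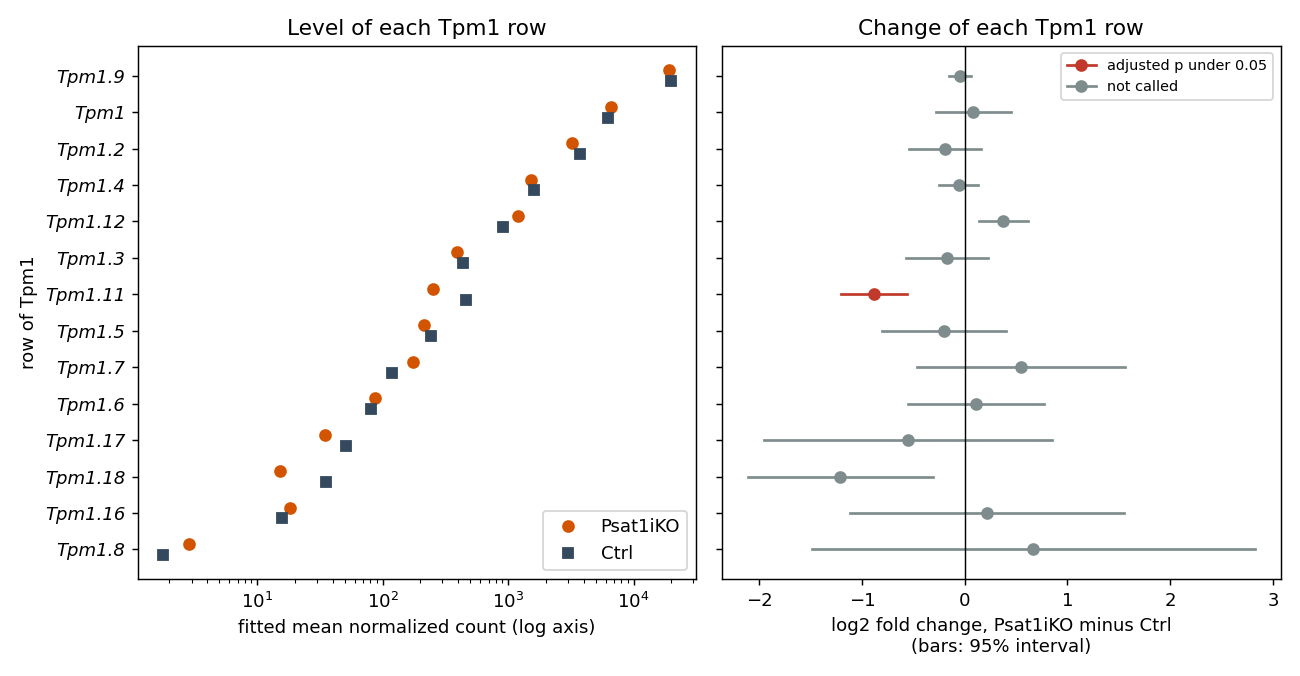
Left, fitted mean normalized count (log axis) of each of the 14 rows of Tpm1 in Psat1iKO (circles) and Ctrl (squares); right, the authors' log2 fold change (Psat1iKO minus Ctrl) with its 95% interval, 4 libraries a group. The row Tpm1.11 alone is called (adjusted p under 0.05), while Tpm1.9, the row of highest count, lies close to 0.

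Z-disc and cytoskeletal genes ranged from 4.76 counts per kb for Tcap to 15675 for Des, as means over all libraries. Des, the muscle intermediate filament desmin, was the highest of all 45 genes per kb and had 46611 in Psat1iKO and 48317 in Ctrl. Ttn, the giant spring protein titin, had 18386 in Psat1iKO and 17995 in Ctrl but ranked 25 of 45 per kb. Actn3, the alpha-actinin of adult fast fibres, had 11554 in Psat1iKO and 12214 in Ctrl and ranked 4 per kb, ahead of Acta1. Actn2, which is found in all striated muscle, had 135 in Psat1iKO and 118 in Ctrl. Per kb it was 1.10% of the 2 actinins in Psat1iKO and 0.915% in Ctrl. Actn3 and Actn2 share under 0.1% of their 50-base words.

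Klhl41, a stabiliser of nebulin, had 1705 in Psat1iKO and 2028 in Ctrl. Per kb, 4 other Z-disc and adhesion genes ranked 34 (Ldb3), 36 (Myoz1), 41 (Xirp2) and 42 (Tcap). Ldb3, a scaffold that binds alpha-actinin, had 159 in Psat1iKO and 163 in Ctrl over 8 rows, and Xirp2 had 58.4 in Psat1iKO and 66.9 in Ctrl. Myoz1, which binds calcineurin, had 18.8 in Psat1iKO and 13.5 in Ctrl, and Tcap, the titin cap, had 4.33 in Psat1iKO and 4.70 in Ctrl. None of the leading rows of this group was called by DESeq2 (0 of 9, and 0 at an unadjusted p under 0.05). The log2 changes of Des and Actn3 in the authors' deposited table were -0.05 ± 0.132 and -0.08 ± 0.106.

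The row Ldb3 had the smallest unadjusted p of all member rows after Tpm1.11, at 0.00148. It had a fitted mean of 0.172 in Psat1iKO and 18.8 in Ctrl, and the authors' deposited table gives a DESeq2 adjusted p of 0.13. On 9.48 counts the size of such a change is loosely set. The same holds for most large changes of single rows: of 15 rows that changed by 2 or more on the log2 scale in either direction, 11 had a mean under 30, 7 lay below 0, and 0 were called by DESeq2.

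Calcium handling was represented from the voltage sensor to the pump. Ryr1, the calcium release channel, had 1453 in Psat1iKO and 1562 in Ctrl, while Cacna1s, the voltage sensor that opens it, had 52.1 in Psat1iKO and 49.5 in Ctrl. Jph2, which holds the reticulum to the surface membrane, had 5434 in Psat1iKO and 5440 in Ctrl. Jsrp1, a reticulum protein of the junction with the surface membrane, had 2061 in Psat1iKO and 2191 in Ctrl. Per kb, these 2 junction genes stood above the channel, at ranks 13 and 9 against 30 for Ryr1.

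Atp2a1, the fast fibre calcium pump, had 2031 in Psat1iKO and 1910 in Ctrl. Casq1, the fast fibre calcium store protein, had 498 in Psat1iKO and 629 in Ctrl, and Casq2, its slow and cardiac form, had 407 in Psat1iKO and 426 in Ctrl. Per kb, Casq2 was 37.1% of the 2 in Psat1iKO and 32.9% in Ctrl. Cav3, the muscle caveolin, had 318 in Psat1iKO and 318 in Ctrl. On leading rows, 4 of 8 lay below 0, with 0 called by DESeq2 and 0 at an unadjusted p under 0.05. They ran from -0.34 ± 0.377 for Casq1 to 0.64 ± 0.998 for Cacna1s.2 in the authors' deposited table. A share of 18.3% of the 50-base words of Atp2a1 and 16.4% of those of Cacna1s also occurs in other genes, mainly the overlapping Rabep2 and Gm37759.

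Genes of energy supply in the adult fibre ranked 27 (Pygm), 31 (Ckm) and 37 (Mb) of 45 per kb. Pygm, the muscle glycogen phosphorylase, had 501 in Psat1iKO and 421 in Ctrl. Ckm, the muscle creatine kinase, had 172 in Psat1iKO and 167 in Ctrl, and Mb, myoglobin, had 15.2 in Psat1iKO and 9.11 in Ctrl. All 3 lay above 0 and none was called (0 of 3, and 0 at an unadjusted p under 0.05 by DESeq2). The log2 changes in the authors' deposited table were 0.25 ± 0.263 for Pygm, 0.04 ± 0.419 for Ckm and 0.73 ± 1.44 for Mb.1. The count of Mb is uncertain, since 34.0% of its 50-base words occur in the antisense gene Gm49540.

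The genes of this list had larger errors than most genes of similar count. In all 33 that average 100 counts or more, the standard error of the log2 change was above the median of all leading rows in the same range of mean count. Between 1000 and 10000 counts, the median standard error was 0.29 for 15 members and 0.0753 for all 4782 leading rows, and 13 of the 15 were above the 90th percentile of 0.158. Between 100 and 1000 counts, the medians were 0.36 for 14 members and 0.184 for all 4919 leading rows, with 1 member above the 90th percentile. From 10000 counts up, they were 0.119 for 4 members and 0.0518 for all 559 leading rows, with 3 members above the 90th percentile. For Acta1, the error gives a 95% interval of -1.13 to 0.51 on the log2 scale.

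The authors' deposited table gives standard errors of 0.32 for Myog and 0.308 for Mymk.1, both of the fusing myocyte. Myod1, a factor of myoblast commitment, was higher in Psat1iKO, where the authors' deposited table lists a log2 change of 0.16 ± 0.0386 (DESeq2 adjusted p = 0.0058). It was the only 1 called of the 8 muscle stem cell and myoblast markers. Of their leading rows, 5 lay above 0 and 3 below, with a median log2 change of 0.03. Library values were not analysed, so whether the same libraries were high in all these genes is unknown.

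**Figure D4:**
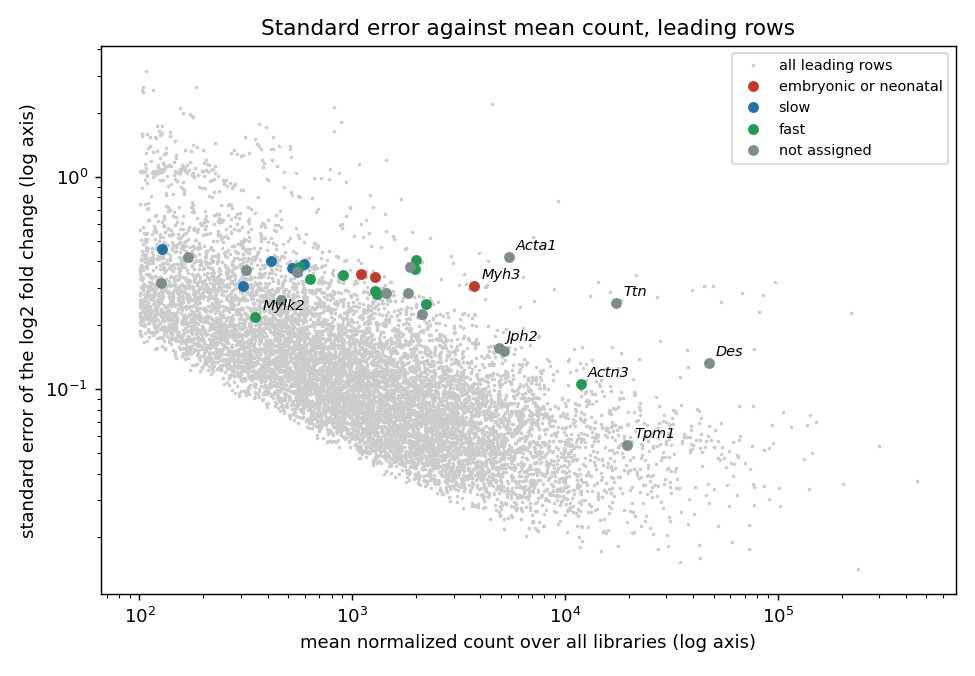
Standard error of the log2 fold change against mean normalized count (both axes log), for all leading rows with a mean of 100 or more (small grey points) and for the 33 sarcomere and calcium handling genes among them, coloured by embryonic or neonatal, slow, fast and unassigned group. Acta1, Myh3 and Ttn lie above most genes of similar count, and Tpm1 lies nearer to the middle of the cloud.

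Other genes of the same machinery were not called either. Of 44 further sarcomere genes 41 were measured, and on leading rows 0 were called by DESeq2, where 0.338% of all leading rows were. At an unadjusted p under 0.05 there were 0, where 1.86% of all leading rows were higher and 2.23% lower. The median log2 change of these genes was -0.05. The 4 of smallest p in the authors' deposited table were the Z-disc gene Pdlim3 at -0.44 ± 0.254, Xirp1 at -0.24 ± 0.173, the thin filament gene Lmod3 at -0.37 ± 0.312 and the desmin chaperone Cryab at -0.34 ± 0.311. All 4 lay below 0, as did 26 of the 41 leading rows (63.4%), where 51.9% of all leading rows did. Of 26 further calcium handling genes 25 were measured. On their leading rows 0 were called by DESeq2 and 0 had an unadjusted p under 0.05, beside the same shares of all leading rows. Their median log2 change was -0.05. Over every row, 0 were called in either list, where 0.656% of the rows of all genes were. The unadjusted p was under 0.05 in 3 of 113 rows of the further sarcomere genes, where 6.04% of all rows passed. It was under 0.05 in 12 of 93 rows of the further calcium handling genes, 4 higher and 8 lower in Psat1iKO. Among these 12 are rows with a fitted mean near 0 in 1 group, such as Cacna2d1.10 (0.173 in Psat1iKO and 60.5 in Ctrl) and Dysf.10 (24.9 in Psat1iKO and 0.189 in Ctrl). Several of the 12 are rows of Cacna2d1 and Dysf, and within each gene they point both ways. Cacna2d1.5 had 111 in Psat1iKO and 2.40 in Ctrl, and Dysf.14 had 0.286 in Psat1iKO and 41.9 in Ctrl. Among the further calcium handling genes of smallest leading row p in the authors' deposited table were Stac3, a partner of the voltage sensor, at -0.67 ± 0.413, the junctophilin Jph1 at -0.11 ± 0.0901 and Asph at 0.15 ± 0.127.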

How the data were processed

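The 8 libraries were compared by the authors, and their deposited table of that comparison is the source of all values; counts per library were not analysed here, so depth is unknown and no SD between libraries or counting interval can be given. Alignment with HISAT2 2.2.1, DESeq2 (version given as 4.2.0) and build mm10 are named per the submitters' processing notes. How reads were counted, on which strand and against which annotation is not given in the sources used here. Each row of the deposited table holds a signal (the mean of normalized counts over all libraries), a log2 ratio with its standard error, a Wald score, and a p-value followed by an adjusted p-value. Recomputed by Benjamini-Hochberg over all 36743 rows, the authors' adjusted p differed by at most 1.39e-05. The deposited log2 ratio has Ctrl on top, per the file headers, and its sign was reversed here.

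Fitted means are the 2 group means that return the pooled mean and the log2 ratio when both groups have the same size. Rows of a gene were summed to a total, which has no test. The row of highest mean is the leading row, and an adjusted p under 0.05 makes a row called. Levels were compared between genes per kb of the longest protein-coding GENCODE M21 transcript (GRCm38). Intervals are 1.96 standard errors on each side. Sequence overlap counts 50-base words on both strands. Calculations (Python 3.11.15, pandas 2.3.3) were tested on simulated data. The members and lists were chosen with earlier results of these data known. By rule every member is accounted for, minor rows are named if called or among the 4 member rows of smallest p, and up to 4 genes of smallest p are named from each of the 2 further lists, with any gene that has a called row. Rows named beyond this were chosen after their values were seen. One gene that this rule names among the further calcium handling genes is not reported here.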

Additional observations from a re-analysis of the deposited data

How the results depend on the processing

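No paired analysis was possible because the deposited comparison was analysed without values per library, and leaving out a library was not run for the same reason. The counts of leading rows called (0 higher and 0 lower) did not move with p-values adjusted over the leading rows alone or over rows that average 100 counts or more. A 2-fold limit only takes calls away, so it could not change a count of 0. At an unadjusted p, 1 was higher. The 1 called row, Tpm1.11, was also called over rows that average 100 counts or more. The count of called rows was 0 with a 2-fold limit, 0 over leading rows alone (Tpm1.11 is no leading row) and 8 at an unadjusted p. The further sarcomere and calcium genes had 0 called on leading rows under each of these settings, which were added for them after the data were seen. For them too, the 2-fold limit could not change a count of 0. The median log2 change over all 45 genes ran between -0.07 and -0.05, for slow genes between -0.07 and -0.03 and for fast genes between -0.21 and -0.10. For embryonic genes the median was 0.24 with summed rows and 0.15 over every row, but changed sign to -0.10 over genes that average 100 counts or more, so its direction depends on the genes of low count. Of 18 genes with more than 1 row, 4 (Myh1, Tnnt1, Ldb3 and Jph2) had a total whose sign differed from that of the leading row, each within its standard error.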
